A study of Mus musculus with 30 samples.

Results

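The genes described here are 34 genes of glycolysis and of the response to low oxygen, chosen by symbol: the glucose transporters, the enzymes that turn glucose into lactate, the transcription factor subunit Hif1a with 2 of its oxygen sensors, and genes known to be induced by it. All 34 were found among the 24557 gene entries of the count table, all had a mean of at least 10 counts per library, and all 34 were among the 15482 genes tested.

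Messenger RNA was sequenced in bulk from tumours that 10-week-old female C57BL/6J mice grew under the skin of the flank after injection of MC38 cells, a colon carcinoma line of mouse. Mice with tumours of 200 to 300 mm3 were given 1 intravenous dose and the tumours were collected 4 or 7 days later. Treated mice received either mXTX301, a mouse surrogate of a masked interleukin-12, at 0.39 mg/kg, or an unmasked positive control molecule at 0.03 mg/kg, and the other mice received vehicle. Each of the 6 combinations of treatment and day held 5 mice, which gave 30 libraries. The doses of the 2 molecules differed, and all mice carried the same tumour line.

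In glycolysis, glucose enters the cell through transporters of the Slc2a family, is trapped by hexokinases and is split and oxidised to pyruvate, which lactate dehydrogenase turns into lactate for export. Hif1a encodes the oxygen-regulated subunit of hypoxia-inducible factor 1. When oxygen is plentiful the prolyl hydroxylases Egln1 and Egln3 mark the protein for destruction, so its activity is set largely at the protein level. When oxygen falls, the factor binds short elements holding RCGTG and induces most enzymes of glycolysis as well as Car9, Bnip3, Ankrd37 and others. Tumours use this pathway widely, and activated macrophages and T cells also turn to glycolysis.

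Library totals ran from 48301869 to 85195518 counts. Values below are in CPM (counts per 1e6 counts of the library), scaled with TMM factors, each fold change is the drug group over vehicle on the log2 scale, and a gene was called at an adjusted p under 0.05 in edgeR's quasi-likelihood F test over all 15482 genes. In 8 libraries, spread over all 6 groups, the summed level of 10 skin epithelium markers was 122 to 934 CPM, against 3.73 to 41.6 CPM in the other 22. These skin-rich libraries were 2 of 5 in each drug group at day 7 and 1 of 5 in every other group. Fits without them used fewer libraries, so a call lost there is not read as an effect of skin. The summed level of 10 colon epithelium markers reached at most 15 CPM in any library, so the epithelial markers of the labelled tumour type were close to absent. One control library stood apart within the genes described here: vehicle day 4 replicate 5 was the highest of its group in 26 of 34 genes, and the 34 genes took 2.45% of its counts, against 1.60 to 2.17% in the other libraries. Calls that change without it are named beside each gene.

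Within each drug comparison, most of the 34 genes did not pass the test in either direction. In mXTX301 tumours, 5 genes were called higher and 4 lower than in vehicle at day 4 (26.5% of the 34), where 32.2% of all genes tested were called, 16.2% higher and 16% lower. At day 7 the mXTX301 tumours had 11 genes called higher and 2 lower (38.2% of the 34), against 48.4% of all genes, 25.7% higher and 22.7% lower. In unmasked control tumours, 4 were called higher and 3 lower at day 4 (20.6% of the 34), against 22.4% of all genes, 11.6% higher and 10.8% lower. Their day 7 counts were 7 higher and 3 lower (29.4% of the 34), against 45% of all genes, 23.2% higher and 21.8% lower. With both directions counted, the called share was below that of all genes in each comparison. The gap was small for the unmasked control at day 4 (20.6% against 22.4%). The share called lower was also below that of all genes each time. The share called higher was not: for mXTX301 at day 7, 11 of 34 is more than 25.7%. For the unmasked control at day 4, 4 of 34 is close to 11.6%. Whether these shares differ from those of all genes was not tested. Called with no overlap between the groups were 1 gene higher and 0 lower for mXTX301 at day 4 (8.86% and 8.82% of all genes), and 7 higher and 2 lower at day 7 (16.2% and 13.8%). The unmasked control gave 2 higher and 0 lower at day 4 (6.72% and 5.74%) and 3 higher and 2 lower at day 7 (12.1% and 12.4%). The median log2 fold change over the 34 genes was -0.01 and 0.17 for mXTX301 at days 4 and 7, against 0.01 and 0.02 over all genes tested. In unmasked control tumours it was 0.05 and 0.02, against -0.01 and 0.01 over all genes tested. Both molecules were compared with the same vehicle libraries, so their values are set side by side and not counted as independent. Slc2a3, Hif1a, Hk1, Ddit4 and Ankrd37 were called in each of the 4 drug comparisons in edgeR. Of these, Hk1 lost its call in 9 of 17 alternative analyses for mXTX301 at day 4, and for the unmasked control in 1 at day 4 and 5 at day 7. Ankrd37 lost its call for the unmasked control at day 7 without the skin-rich libraries (-0.66, adjusted p = 0.0704), and Ddit4 for the unmasked control at day 4 with only the groups compared in the fit (adjusted p = 0.0577). A further 17 genes were called in none of the 4 comparisons in edgeR, with log2 fold changes between -0.33 and 0.40, and 8 of the 17 were called in at least 1 comparison in some alternative analysis.

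**Figure D1:**
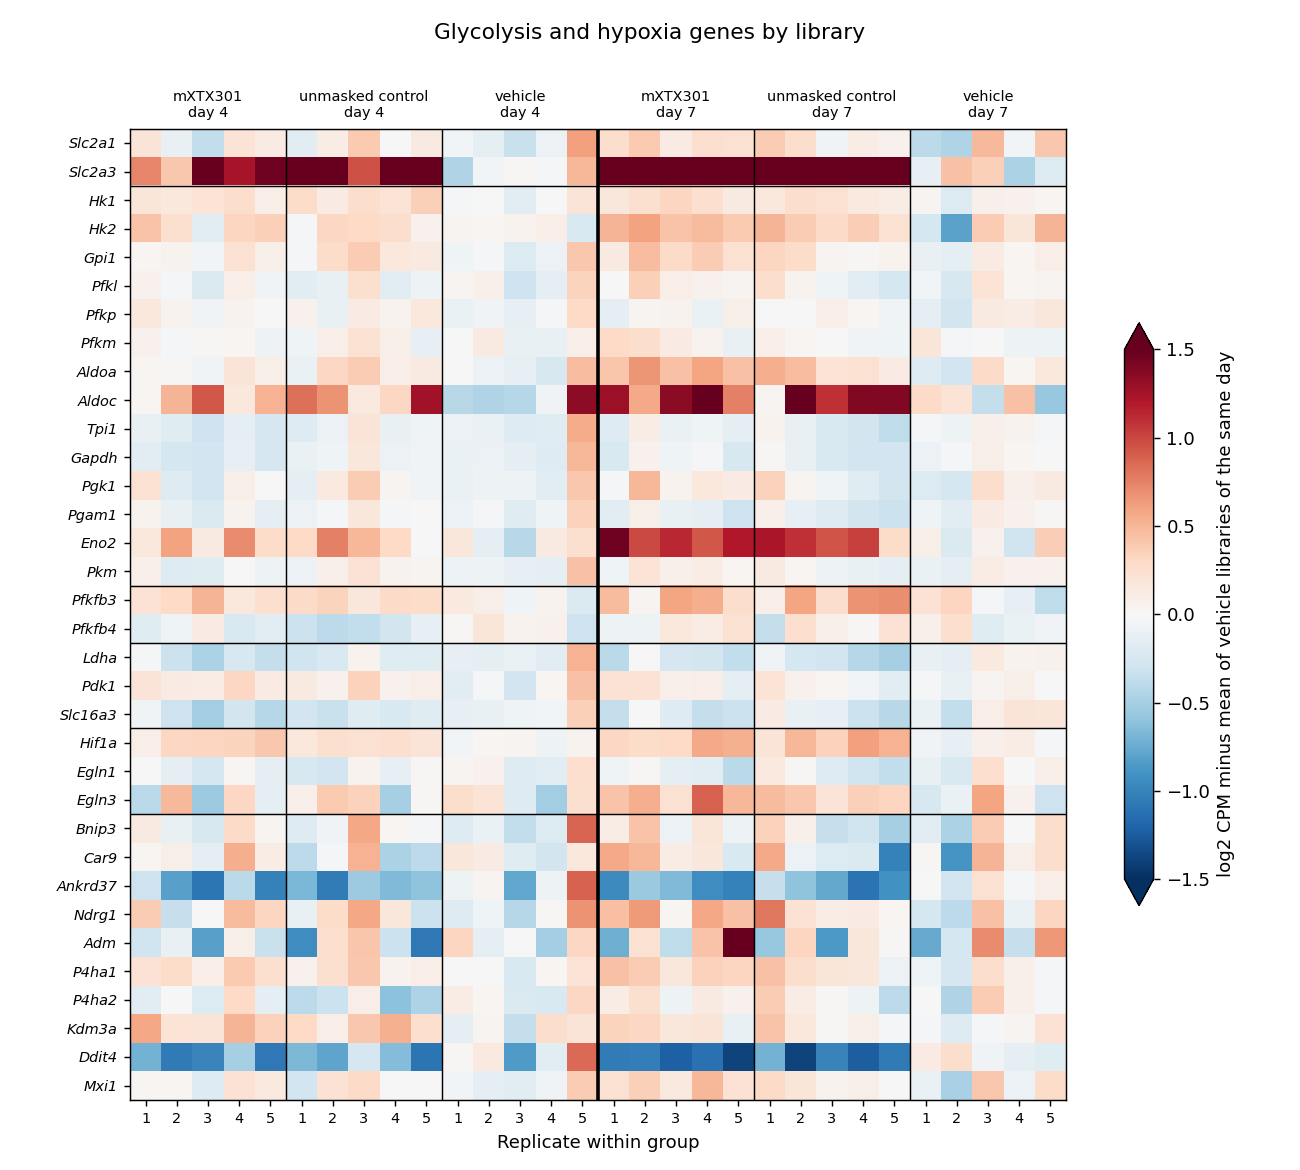
Each cell gives 1 gene (rows, grouped by role) in 1 library (columns) as log2 CPM minus the mean of the vehicle libraries of the same day; colours stop at 1.5 in either direction. Slc2a3 is darkest red in the drug groups, Ddit4 and Ankrd37 are blue there, and vehicle day 4 replicate 5 is red in most rows.

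**Figure D2:**
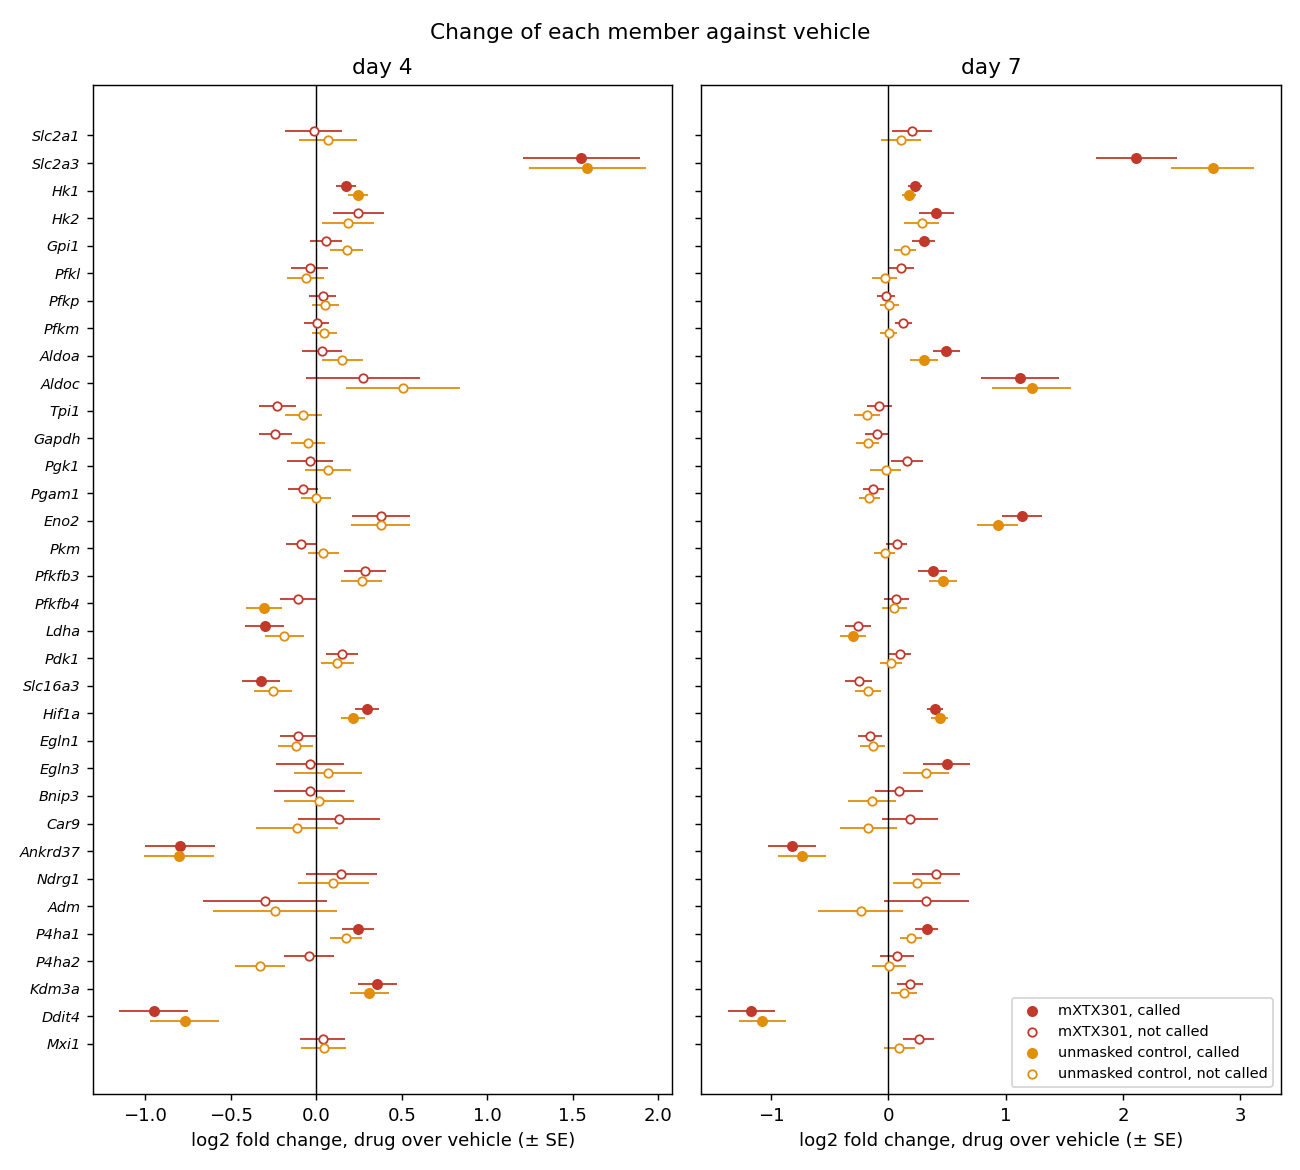
Log2 fold change of each gene over vehicle with its standard error, at day 4 (left) and day 7 (right), for mXTX301 (red) and the unmasked control (orange), 5 libraries a group; filled points passed the test and the axes of the panels differ. Slc2a3 lies farthest right, at 1.55 to 2.77, and Ddit4 and Ankrd37 farthest left, at -0.73 to -1.17, while most enzymes lie near 0.

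The 2 glucose transporters behaved differently. Slc2a3, a high-affinity glucose transporter abundant in neurons and leukocytes, was higher in every drug comparison. In mXTX301 tumours at day 4 it measured 2.83, 2.24, 11.5, 4.02 and 4.69 CPM, in unmasked control tumours 5.36, 5.77, 3.31, 5.35 and 6.20 CPM, and in vehicle tumours 1.23, 1.65, 1.71, 1.66 and 2.40 CPM. At day 7 it measured 5.83, 4.91, 7.07, 10.8 and 7.84 CPM in mXTX301 tumours, 6.65, 16.1, 7.23, 12.8 and 14.4 CPM in unmasked control tumours and 1.49, 2.23, 2.10, 1.17 and 1.41 CPM in vehicle tumours. The drug and vehicle libraries did not overlap except at day 4 for mXTX301, where replicate 2 lay below the highest vehicle library and replicate 3 lay far above its own group. The log2 fold change for mXTX301 was 1.55 ± 0.34 (SE, adjusted p = 0.00126) at day 4 and 2.12 ± 0.35 (adjusted p = 2.01e-05) at day 7. For the unmasked control it was 1.59 ± 0.34 (adjusted p = 0.0015) at day 4 and 2.77 ± 0.35 (adjusted p = 1.06e-06) at day 7, a 6.80-fold difference of means. Without mXTX301 day 4 replicate 3, one of the skin-rich libraries, the day 4 value for mXTX301 was 0.98 (adjusted p = 0.0121). Slc2a1, the transporter of most tumour cells and a standard hypoxia target, was not called in any comparison. Its means were 196 ± 31.3 CPM in mXTX301, 208 ± 30.4 CPM in unmasked control and 198 ± 56.1 CPM in vehicle tumours at day 4 (SD, n = 5 each). At day 7 they were 202 ± 13.6, 189 ± 22.5 and 175 ± 52.8 CPM in mXTX301, unmasked control and vehicle tumours (SD, n = 5 each), with 95% intervals of the log2 fold change of -0.14 to 0.55 for mXTX301 and -0.24 to 0.45 for the unmasked control.

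Median sums of macrophage and T cell markers were also higher in the drug groups than in vehicle. Whether Slc2a3 followed any marker sum from library to library was not tested. The summed level of 9 macrophage markers had a median of 1020 CPM (range 577 to 1548) in mXTX301, 797 CPM (627 to 1087) in unmasked control and 517 CPM (472 to 666) in vehicle tumours at day 4. At day 7 the medians were 1693 CPM (1281 to 2425), 2234 CPM (810 to 2448) and 673 CPM (326 to 921) in mXTX301, unmasked control and vehicle tumours. The sum of 8 T cell markers was 54.6 to 136 CPM in mXTX301, 53.3 to 171 CPM in unmasked control and 5.66 to 10.8 CPM in vehicle tumours at day 7. Monocyte and neutrophil markers (8 genes) differed little between unmasked control and vehicle at day 4, with median sums of 61.3 and 59.7 CPM. In mXTX301 tumours that median was 105 CPM. At day 7 it was 120, 145 and 54.4 CPM in mXTX301, unmasked control and vehicle tumours. In bulk tissue, a change in the number of cells of a type and a change of RNA within each cell cannot be told apart, and the part of these cells in the results was not tested.

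Among the 14 glycolytic enzymes, 1 was called higher and none lower in either drug group at day 4, and at day 7 6 were called higher after mXTX301 and 4 after the unmasked control, again with none lower. Of all genes tested, 16.2% were called higher and 16% lower for mXTX301 at day 4 and 25.7% and 22.7% at day 7, and 11.6% and 10.8%, and 23.2% and 21.8%, for the unmasked control. The largest changes were in 2 tissue-restricted isoforms of low level. Eno2, the enolase of neurons, measured 14.4, 10.3, 11.4, 10.0 and 12.0 CPM in mXTX301 tumours at day 7, 12.2, 11.2, 10.1, 10.7 and 6.30 CPM in unmasked control tumours and 5.55, 4.48, 5.44, 4.24 and 6.72 CPM in vehicle tumours. Every mXTX301 library lay above every vehicle library, and 1 unmasked control library fell among the vehicle values. The log2 fold change was 1.14 ± 0.17 (SE, adjusted p = 8.03e-06) for mXTX301 and 0.93 ± 0.17 (adjusted p = 9.96e-05) for the unmasked control. At day 4 Eno2 averaged 8.51 ± 1.59 CPM in mXTX301, 8.49 ± 1.64 CPM in unmasked control and 6.54 ± 1.15 CPM in vehicle tumours (SD, n = 5 each) and was not called. Without the skin-rich libraries it was called at day 4 too, at 0.45 for mXTX301 (edgeR adjusted p = 0.0412) and 0.48 for the unmasked control (edgeR adjusted p = 0.0401).

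Aldoc, the aldolase isoform known from brain, measured 6.85, 4.16, 7.19, 8.55 and 4.73 CPM in mXTX301 tumours at day 7, 2.87, 10.1, 6.01, 7.37 and 7.37 CPM in unmasked control tumours and 3.40, 3.23, 2.16, 3.78 and 1.88 CPM in vehicle tumours. The mXTX301 libraries did not overlap with vehicle, while unmasked control replicate 1 lay within the vehicle range. Its log2 fold change was 1.12 ± 0.34 (SE, adjusted p = 0.00734) for mXTX301 and 1.22 ± 0.34 (adjusted p = 0.00427) for the unmasked control. Without the skin-rich libraries the mXTX301 value was 0.87 with an adjusted p of 0.105. At day 4 Aldoc was not called, and vehicle day 4 replicate 5, at 7.07 CPM, was above all 4 other vehicle libraries (2.03 to 2.69 CPM) and all mXTX301 libraries (2.83 to 5.33 CPM). Its day 4 log2 fold changes were 0.27 for mXTX301 and 0.51 for the unmasked control, and without that library they were 0.79 (edgeR adjusted p = 0.045) and 1.03 (edgeR adjusted p = 0.011) and were called.

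The widely expressed isoforms changed less. Aldoa, the main aldolase, measured 1857, 2205, 1886, 2098 and 1883 CPM in mXTX301 tumours at day 7 against 1221, 1142, 1699, 1424 and 1556 CPM in vehicle tumours, with no overlap. Its log2 fold change was 0.50 ± 0.12 (SE, adjusted p = 0.00122) for mXTX301 and 0.31 ± 0.12 (adjusted p = 0.0364) for the unmasked control, a call lost in 8 of 17 alternatives, with an adjusted p of up to 0.15. At day 4 Aldoa was called for the unmasked control without vehicle day 4 replicate 5 (0.29, adjusted p = 0.0492, against 0.15 with it). Hk1, a hexokinase of most tissues, was 181 ± 7.51 CPM in mXTX301, 190 ± 11.5 CPM in unmasked control and 160 ± 14.7 CPM in vehicle tumours at day 4 (SD, n = 5 each). At day 7 it measured 182, 192, 202, 193 and 177 CPM in mXTX301 tumours, 180, 194, 189, 178 and 174 CPM in unmasked control tumours and 166, 141, 170, 169 and 165 CPM in vehicle tumours. Neither drug group overlapped with vehicle at day 7, although the log2 fold changes were only 0.22 ± 0.06 (SE, adjusted p = 0.00312) for mXTX301 and 0.18 ± 0.06 (adjusted p = 0.0182) for the unmasked control. Gpi1, which interconverts glucose and fructose phosphates, measured 717, 906, 798, 853 and 766 CPM in mXTX301 tumours at day 7 against 608, 597, 711, 667 and 699 CPM in vehicle tumours, a log2 fold change of 0.30 ± 0.10 (SE, adjusted p = 0.0115) with no overlap. Without mXTX301 day 7 replicate 2 the adjusted p was 0.0546. At day 4 Gpi1 was called for the unmasked control without vehicle day 4 replicate 5 (0.30, adjusted p = 0.0103, against 0.18 with it). Hk2, the hypoxia-inducible hexokinase, was called only for mXTX301 at day 7 (0.41 ± 0.15, adjusted p = 0.0267), where vehicle libraries ranged from 113 to 281 CPM. That call was lost in 5 of 17 alternatives, with a value down to 0.24 without vehicle day 7 replicate 2 (adjusted p = 0.0966) and an adjusted p of up to 0.138. For the unmasked control at day 7 Hk2 was called without the skin-rich libraries (0.46, adjusted p = 0.0417) and without vehicle day 7 replicate 5 (0.40, adjusted p = 0.0283), against 0.28 with all libraries.

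Most later enzymes of the pathway were not called. Gapdh, Pgk1, Pgam1, Pkm and Tpi1 were called in none of the 4 drug comparisons in edgeR with all libraries. Gapdh, the glyceraldehyde phosphate dehydrogenase often used as a reference gene, had log2 fold changes between -0.24 and -0.05 over the 4 drug comparisons, and Tpi1, triosephosphate isomerase, between -0.23 and -0.07. For mXTX301 at day 4 Gapdh was called lower by DESeq2 (-0.24, adjusted p = 0.0408) and in edgeR without any 1 of vehicle day 4 replicates 1, 2, 3 and 4 (-0.28 to -0.30, adjusted p of 0.0243 to 0.0467). Tpi1 was called lower there without vehicle day 4 replicate 4 (-0.29, edgeR adjusted p = 0.0498). All these fits kept vehicle day 4 replicate 5. For Gapdh it measured 5653 CPM, against 3504 to 3755 CPM in the other vehicle libraries of day 4. Its Tpi1 value was 1802 CPM, against 1066 to 1154 CPM. Without that library neither gene was called for mXTX301 at day 4. Pgam1, phosphoglycerate mutase, was called lower for the unmasked control at day 7 without its replicate 1 (-0.24, edgeR adjusted p = 0.036). Pgk1, phosphoglycerate kinase, ranged from -0.04 to 0.16, and Pkm, pyruvate kinase, from -0.09 to 0.07. Of the 3 phosphofructokinase genes, Pfkl, Pfkp and Pfkm, none was called, with values between -0.06 and 0.13, although Pfkm was called for mXTX301 at day 7 without its replicate 5 (0.17, adjusted p = 0.0483). Processed copies of Gapdh, Ldha, Aldoa, Tpi1, Pgam1, Pgk1 and Pkm exist in the mouse genome, and how reads matching several places were counted is not given in the sources used here, so small differences of these genes are uncertain.

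Of the 2 enzymes that set fructose 2,6-bisphosphate, the activator of phosphofructokinase, Pfkfb3 was higher at day 7. It measured 141, 105, 154, 148 and 122 CPM in mXTX301 tumours, 109, 152, 122, 163 and 165 CPM in unmasked control tumours and 118, 127, 99.3, 93.6 and 77.8 CPM in vehicle tumours, with overlapping ranges. The log2 fold change was 0.38 ± 0.12 (SE, adjusted p = 0.0115) for mXTX301 and 0.46 ± 0.12 (adjusted p = 0.00278) for the unmasked control. Without the skin-rich libraries the mXTX301 value was 0.18 (adjusted p = 0.282). At day 4 Pfkfb3 was called with only the groups compared in the fit, at 0.29 (adjusted p = 0.034) for mXTX301 and 0.27 (adjusted p = 0.0278) for the unmasked control. Pfkfb4 was called only for the unmasked control at day 4, where its log2 fold change was -0.30 ± 0.11 (SE, adjusted p = 0.039), and that call was lost in 11 of 17 alternative analyses.

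Of the 3 genes that handle pyruvate and lactate, Ldha and Slc16a3 were called lower in some comparisons and none was called higher. Ldha, which makes lactate from pyruvate, measured 2126, 1737, 1553, 1838 and 1688 CPM in mXTX301 tumours at day 4, 1764, 1847, 2242, 1908 and 1910 CPM in unmasked control tumours and 1981, 1970, 2019, 1946 and 3099 CPM in vehicle tumours. The 3099 CPM belonged to vehicle day 4 replicate 5, and the other 4 vehicle libraries lay between 1946 and 2019 CPM. The log2 fold change for mXTX301 was -0.30 ± 0.11 (SE, adjusted p = 0.0445), and -0.15 (adjusted p = 0.265) without that library, and the call was lost in 9 of 17 alternatives. At day 7 Ldha averaged 1623 ± 181 CPM in mXTX301, 1576 ± 194 CPM in unmasked control and 1941 ± 163 CPM in vehicle tumours (SD, n = 5 each). It was called lower for the unmasked control (-0.30 ± 0.11, adjusted p = 0.0333) and not for mXTX301 (-0.26 ± 0.11, adjusted p = 0.0636). The call for the unmasked control was lost in 5 of 17 alternatives, and Ldha was called lower for mXTX301 in 6 of 17, DESeq2 among them (adjusted p = 0.041). Slc16a3, the lactate exporter of glycolytic cells, was called lower for mXTX301 at day 4 (-0.32 ± 0.11, adjusted p = 0.0269), and this value was -0.23 (adjusted p = 0.125) without vehicle day 4 replicate 5. For mXTX301 at day 7 it was not called (-0.25, adjusted p = 0.0606), but was in 6 of 17 alternatives, DESeq2 among them (adjusted p = 0.0406). Pdk1, the kinase that keeps pyruvate out of the mitochondria, was not called in edgeR with all libraries, with log2 fold changes between 0.02 and 0.15. Without vehicle day 4 replicate 5 it was called higher at day 4, at 0.27 (adjusted p = 0.0116) for mXTX301 and 0.25 (adjusted p = 0.0193) for the unmasked control.

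Hif1a transcripts were modestly higher in all 4 drug comparisons. At day 4 they measured 148, 171, 172, 174 and 183 CPM in mXTX301 tumours, 155, 163, 162, 165 and 158 CPM in unmasked control tumours and 134, 140, 142, 131 and 144 CPM in vehicle tumours. At day 7 they measured 180, 174, 178, 213 and 208 CPM in mXTX301 tumours, 164, 204, 183, 220 and 207 CPM in unmasked control tumours and 139, 132, 152, 156 and 143 CPM in vehicle tumours. In each comparison every drug library lay above every vehicle library. The log2 fold change for mXTX301 was 0.30 ± 0.07 (SE, adjusted p = 0.00225) at day 4 and 0.40 ± 0.07 (adjusted p = 4.59e-05) at day 7. In unmasked control tumours it was 0.21 ± 0.07 (adjusted p = 0.0274) at day 4 and 0.44 ± 0.07 (adjusted p = 1.74e-05) at day 7. The unmasked control call at day 4 was lost in 5 of 17 alternatives, among them without the skin-rich libraries (0.19, adjusted p = 0.126). Egln1, a prolyl hydroxylase, was called in no comparison. Egln3, another prolyl hydroxylase, was called only for mXTX301 at day 7 (0.50 ± 0.20, edgeR adjusted p = 0.0394), a call lost in 11 of 17 alternatives. It was called for the unmasked control at day 7 without vehicle day 7 replicate 3 (0.48, adjusted p = 0.0478).

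Among the 10 other hypoxia targets, Ddit4 and Ankrd37 fell in each drug comparison while most of the others did not pass the test. Ddit4, an inhibitor of mTORC1 that is also induced by glucocorticoids and other stresses, measured 344, 269, 281, 398 and 267 CPM in mXTX301 tumours at day 4, 351, 325, 471, 358 and 263 CPM in unmasked control tumours and 566, 622, 310, 502 and 1012 CPM in vehicle tumours. At day 7 it measured 321, 326, 284, 306 and 255 CPM in mXTX301 tumours, 406, 253, 333, 281 and 319 CPM in unmasked control tumours and 723, 800, 639, 604 and 586 CPM in vehicle tumours. The groups overlapped at day 4 through vehicle replicate 3 and were separate at day 7. For mXTX301 the log2 fold change was -0.95 ± 0.20 (SE, adjusted p = 0.000912) at day 4 and -1.17 ± 0.20 (adjusted p = 4.31e-05) at day 7. The unmasked control values were -0.77 ± 0.20 (adjusted p = 0.00688) at day 4 and -1.07 ± 0.20 (adjusted p = 0.000127) at day 7. Without vehicle day 4 replicate 5 the day 4 values were -0.68 (adjusted p = 0.00481) for mXTX301 and -0.50 (adjusted p = 0.036) for the unmasked control.

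Ankrd37, a small ankyrin-repeat gene known as a direct target of hypoxia-inducible factor 1, measured 24.9, 17.5, 14.5, 23.3 and 15.3 CPM in mXTX301 tumours at day 4, 19.1, 14.9, 21.1, 19.6 and 20.3 CPM in unmasked control tumours and 29.3, 31.7, 18.0, 29.3 and 57.2 CPM in vehicle tumours. At day 7 it measured 13.8, 18.2, 17.0, 14 and 13.3 CPM in mXTX301 tumours, 21.1, 17.6, 15.7, 12.4 and 14.3 CPM in unmasked control tumours and 26.7, 21.9, 31.4, 26.3 and 28.8 CPM in vehicle tumours. As with Ddit4, only vehicle replicate 3 overlapped with the drug libraries at day 4 and the groups were separate at day 7. The log2 fold changes for mXTX301 were -0.80 ± 0.21 (SE, adjusted p = 0.00438) at day 4 and -0.82 ± 0.21 (adjusted p = 0.00182) at day 7. The unmasked control gave -0.80 ± 0.21 (adjusted p = 0.006) and -0.73 ± 0.21 (adjusted p = 0.00495). Without vehicle day 4 replicate 5 both day 4 values were -0.51, with adjusted p of 0.0298 for mXTX301 and 0.0317 for the unmasked control. In the GENCODE mouse annotation, 22.7% of the exon bases of Ankrd37 overlap Lrp2bp and 3.7% overlap Ufsp2, both on the other strand. Whether the counting used strand is not stated. Lrp2bp itself measured 0.229 CPM in mXTX301 and 0.240 CPM in vehicle tumours at day 7 and was not called. Ufsp2 measured 47.5 CPM in mXTX301, 46.4 CPM in unmasked control and 51.7 CPM in vehicle tumours at day 7. It was called lower there for the unmasked control (-0.16, edgeR adjusted p = 0.0285) and not for mXTX301 (-0.12, edgeR adjusted p = 0.0766). The part of these overlaps in the counts of Ankrd37 was not tested.

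**Figure D3:**
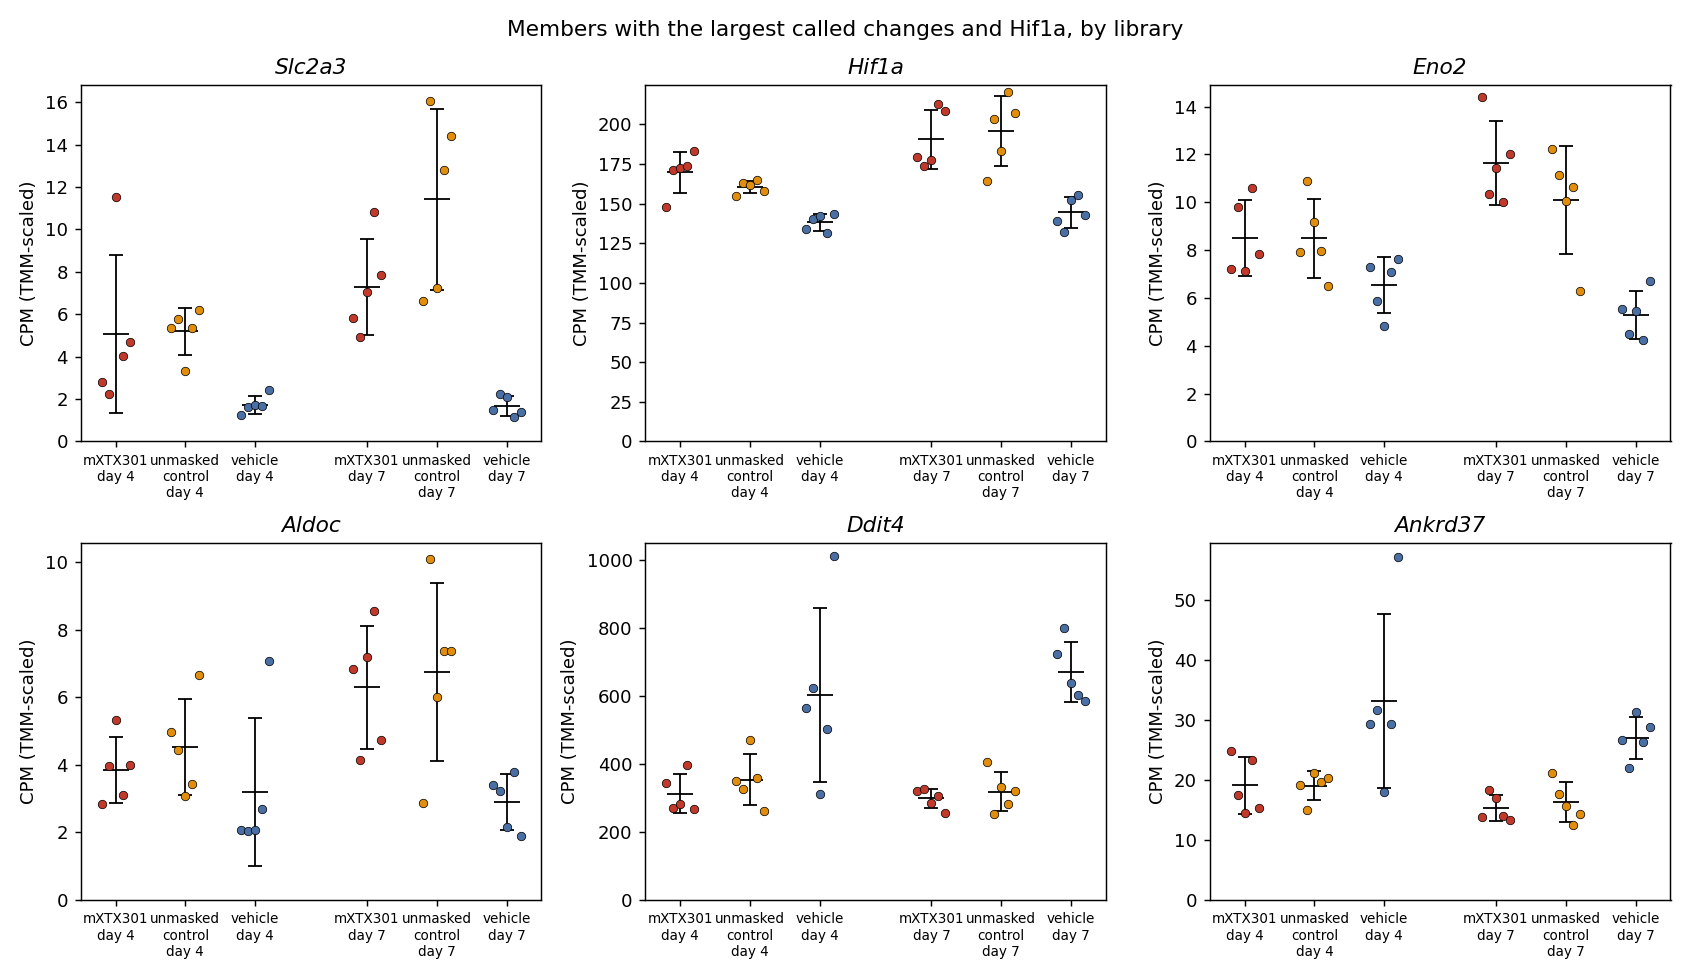
CPM per library (points) with mean and SD (bars, n = 5) of 6 genes in each group, every axis starting at 0. Slc2a3, Hif1a and Eno2 are higher and Ddit4 and Ankrd37 lower in the drug groups, and vehicle day 4 holds 1 high library for Aldoc, Ddit4 and Ankrd37.

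The remaining hypoxia targets gave 2 further called genes. Kdm3a, a histone demethylase, was called higher at day 4 for mXTX301 (0.36 ± 0.11, adjusted p = 0.0168) and the unmasked control (0.31 ± 0.11, adjusted p = 0.0481). These calls were lost in 2 of 17 alternatives for mXTX301 and in 10 of 17 for the unmasked control. P4ha1, a collagen prolyl hydroxylase subunit, was called higher for mXTX301 at day 4 (0.24 ± 0.09, adjusted p = 0.0492) and day 7 (0.33 ± 0.09, adjusted p = 0.00571). Its day 4 call was lost in 12 of 17 alternatives, with an adjusted p of up to 0.155, and it was called for the unmasked control at day 7 in 2 of 17. Car9, the carbonic anhydrase that is the most used tissue marker of hypoxia, measured 67.3, 70.3, 59.8, 96.8 and 71.6 CPM in mXTX301 tumours at day 4, 50.5, 64.9, 95, 47.7 and 50.6 CPM in unmasked control tumours and 74.3, 72.2, 58.3, 54.7 and 74.1 CPM in vehicle tumours. Its groups overlapped widely, and at day 7 it averaged 65.5 ± 14.2 CPM in mXTX301, 51.2 ± 19.6 CPM in unmasked control and 57.7 ± 17.9 CPM in vehicle tumours (SD, n = 5 each). The 95% intervals of its log2 fold change at day 7 were -0.31 to 0.68 for mXTX301 and -0.67 to 0.33 for the unmasked control, so changes within those ranges were not excluded. Bnip3, Ndrg1, Mxi1, P4ha2 and the vasodilator peptide gene Adm were called in none of the drug comparisons in edgeR with all libraries, Ndrg1 reaching 0.40 after mXTX301 at day 7. In 1 alternative each, Mxi1 (0.34 without vehicle day 7 replicate 3) and Adm (0.88 without the skin-rich libraries) were called higher for mXTX301 at day 7, and P4ha2 lower for the unmasked control at day 4 (-0.45 without its replicate 3). Adm had the widest spread within groups of all 34 genes, with a median coefficient of variation of 38.7%, against 5.61% for Hk1.

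Promoter windows of 300 bases (250 before to 50 after a start site, RefSeq, build GRCm38.p6) were read for 32 of the 34 genes; Slc2a3 and Ndrg1 had no entry. The 5-letter motifs ACGTG and GCGTG, the core letters of hypoxia response elements, were searched on both strands. At least 1 of them lay in a window of 29 of the 32 genes, against 46.7% of all genes in the table, and ACGTG in 23 of 32, against 21.8%. Genes can have several windows. Counted by window, 76.6% of the 47 windows of these genes held either motif, against 43.8% of all windows. Since these genes were chosen for their link to hypoxia, this is a description of the list. The windows of the genes with the largest called changes and an entry are printed as a description. Motif letters were present in the windows shown for Aldoc and Ddit4 and not found in that of Eno2. Aldoc has a further window, which holds 1 match and is not shown. Bases outside the windows were not read, and a link between motifs and the direction of change was not tested. Motifs are in capitals on the gene's own strand, and a motif on the opposite strand appears as CACGT or CACGC.
Aldoc (chr11:78322823-78323122, plus strand): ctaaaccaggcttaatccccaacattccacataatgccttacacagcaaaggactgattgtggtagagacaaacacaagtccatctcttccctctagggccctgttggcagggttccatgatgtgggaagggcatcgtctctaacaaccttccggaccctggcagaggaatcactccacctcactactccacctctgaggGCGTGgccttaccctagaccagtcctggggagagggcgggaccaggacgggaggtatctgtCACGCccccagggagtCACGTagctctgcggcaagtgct
Ddit4 (chr10:59951721-59952020, minus strand): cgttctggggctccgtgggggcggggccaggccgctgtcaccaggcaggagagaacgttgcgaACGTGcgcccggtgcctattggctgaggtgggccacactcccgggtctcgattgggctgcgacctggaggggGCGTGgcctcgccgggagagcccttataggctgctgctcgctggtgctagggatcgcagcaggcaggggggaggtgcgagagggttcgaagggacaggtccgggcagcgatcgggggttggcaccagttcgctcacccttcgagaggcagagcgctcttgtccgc
Eno2 (chr6:124769624-124769923, minus strand): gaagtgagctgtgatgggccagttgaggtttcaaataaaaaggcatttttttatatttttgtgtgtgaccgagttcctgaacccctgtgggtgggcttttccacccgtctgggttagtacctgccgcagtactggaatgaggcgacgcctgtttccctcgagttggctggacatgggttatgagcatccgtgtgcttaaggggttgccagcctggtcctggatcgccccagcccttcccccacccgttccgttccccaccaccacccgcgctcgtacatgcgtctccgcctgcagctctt
Ankrd37, which fell, had 4 motif matches in its window, and Ldha, which was called lower in 2 of 4 comparisons, had 7 in its first window.

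The balance between isoforms was read as a ratio within each library. The log2 ratio of Slc2a3 to Slc2a1 was -5.52 ± 1.07 in mXTX301 and -6.84 ± 0.29 in vehicle tumours at day 4, and -4.84 ± 0.49 and -6.70 ± 0.61 at day 7 (SD, n = 5 each). The difference was 1.32 and 1.86 for mXTX301 at days 4 and 7, and 1.49 and 2.57 for the unmasked control. Each of these 4 differences had an exact permutation p of 0.00794 (two-sided), the smallest 5 against 5 libraries allow, and 0.0282 after adjustment over 32 ratio tests. The ratio of Pfkfb3 to Pfkfb4 was higher by 0.39 for mXTX301 at day 4, and by 0.57 and 0.42 for the unmasked control at days 4 and 7 (exact permutation p = 0.00794 and adjusted p = 0.0282 for each). For mXTX301 at day 7 it was higher by 0.32 and did not pass (exact permutation p = 0.0714, adjusted 0.163). The ratio of Egln3 to Egln1 was higher at day 7, by 0.67 for mXTX301 (exact permutation adjusted p = 0.0282) and 0.49 for the unmasked control (exact permutation adjusted p = 0.0424). That of P4ha2 to P4ha1, subunits of the same collagen hydroxylase family, differed by -0.28 and -0.24 for mXTX301 at days 4 and 7 and by -0.51 for the unmasked control at day 4, with adjusted exact permutation p between 0.0282 and 0.0424, and by -0.19 for the unmasked control at day 7 (exact permutation adjusted p = 0.078). The ratios Hk1 to Hk2, Aldoc to Aldoa, Pfkp to Pfkl and Pfkm to Pfkl did not pass in any comparison. These ratios were chosen after the data had been seen.

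The 2 drugs were not distinguished in these genes. None of the 34 was called between mXTX301 and the unmasked control in edgeR at either day, where 0% of all genes were called, and DESeq2 called none. None of the 34 had an unadjusted edgeR p under 0.05, against 13.5% of all genes at day 4 and 5.8% at day 7. The difference of Slc2a3 at day 7, 7.29 ± 2.27 CPM in mXTX301 and 11.4 ± 4.27 CPM in unmasked control tumours (SD, n = 5 each), had a log2 value of -0.65 with a 95% interval of -1.33 to 0.03. For Hif1a at day 7 the interval was -0.18 to 0.10. The doses differed, so this compares the treatments as given.

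With all libraries, edgeR called no change between days. In vehicle tumours edgeR called none of the 34 between day 7 and day 4 (background 0.0388% of genes, 0.0194% higher and 0.0194% lower), and DESeq2 called none. There, 1 of the 34 had an unadjusted edgeR p under 0.05, against 18.9% of all genes. The change of the drug effect between days was called by edgeR for none of the 34 with either molecule (background 4.99% of genes, 1.95% higher and 3.04% lower, for mXTX301, and 5.15%, 2.95% higher and 2.2% lower, for the unmasked control). At an unadjusted edgeR p under 0.05 there were 2 genes for mXTX301 (24.9% of all genes) and 4 for the unmasked control (25.9% of all genes). DESeq2 called 1 and 0. The 1 call was Eno2 (0.75, DESeq2 adjusted p = 0.0315), which edgeR also called without vehicle day 7 replicate 5 (0.85, adjusted p = 0.0337). Without vehicle day 4 replicate 5, edgeR called Gapdh (-0.30, adjusted p = 0.0343) and Pfkfb4 (0.40, adjusted p = 0.0473) for the day change of the unmasked control, and Pfkfb4 also without unmasked control day 7 replicate 1 (0.43, adjusted p = 0.0351). The largest of those in edgeR with all libraries were Eno2 for mXTX301, whose effect was 0.76 larger at day 7 on the log2 scale (95% interval 0.26 to 1.26, adjusted p = 0.0635), and Slc2a3 for the unmasked control, 1.18 larger (0.20 to 2.15, adjusted p = 0.116).

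Across the 30 libraries, after each group's mean was removed, most of the genes went up and down together. The median Pearson r over the 561 pairs was 0.47, with a range of -0.80 to 0.96, and this is a description, since all pairs share the libraries and their scaling. Of 8 pairs tested by permutation within groups, Pgk1 with Ldha had r = 0.91 and rho = 0.89, and Pgk1 with Bnip3 r = 0.90 and rho = 0.85, all with p = 1e-05, the smallest that 100000 permutations can give, and an adjusted p of 4e-05. Without the 2 libraries farthest from the median of Pgk1 the r values were 0.91 and 0.87. Car9 was correlated with Slc2a1 (r = 0.63, permutation p = 0.00012, adjusted 0.00032; rho = 0.65, permutation p = 0.00031; r = 0.60 without the 2 farthest libraries). It was also correlated with Ankrd37 (r = 0.45, permutation p = 0.00325, adjusted 0.0065; rho = 0.50, permutation p = 0.00778; r = 0.43 without the 2 farthest) and with Egln3 (r = 0.45, permutation p = 0.0112, adjusted 0.0149; rho = 0.55, permutation p = 0.00371; r = 0.53 without the 2 farthest).

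Hif1a transcripts did not track that shared variation. Hif1a with Car9 gave r = -0.15 (permutation p = 0.519, adjusted 0.519; rho = -0.12, permutation p = 0.554; r = 0.01 without the 2 farthest libraries). Hif1a with Slc2a3 gave r = 0.47 (permutation p = 0.034, adjusted 0.0389; rho = 0.54, permutation p = 0.00848; r = 0.34 without the 2 farthest libraries), and the adjusted p was 0.0909 without the skin-rich libraries and 0.0515 without vehicle day 4 replicate 5. Hk2 with Slc2a1 gave r = 0.62 (permutation p = 0.0102, adjusted 0.0149; rho = 0.61, permutation p = 0.00355), but r = 0.49 without the 2 farthest libraries and 0.50 (adjusted p = 0.183) without the skin-rich ones. Without vehicle day 4 replicate 5 it was 0.85 (permutation, adjusted p = 2.67e-05). Pfkfb4, Pfkfb3, Slc2a3, Aldoc and Hif1a were the 5 genes with a negative median r to the other members of the list, from -0.63 for Pfkfb4 to -0.03 for Hif1a, and Bnip3 had the highest at 0.79. By this measure, over 30 libraries, the gene most like Slc2a3 was Aldoc (r = 0.57) and the gene most like Car9 was P4ha2 (r = 0.90).

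**Figure D4:**
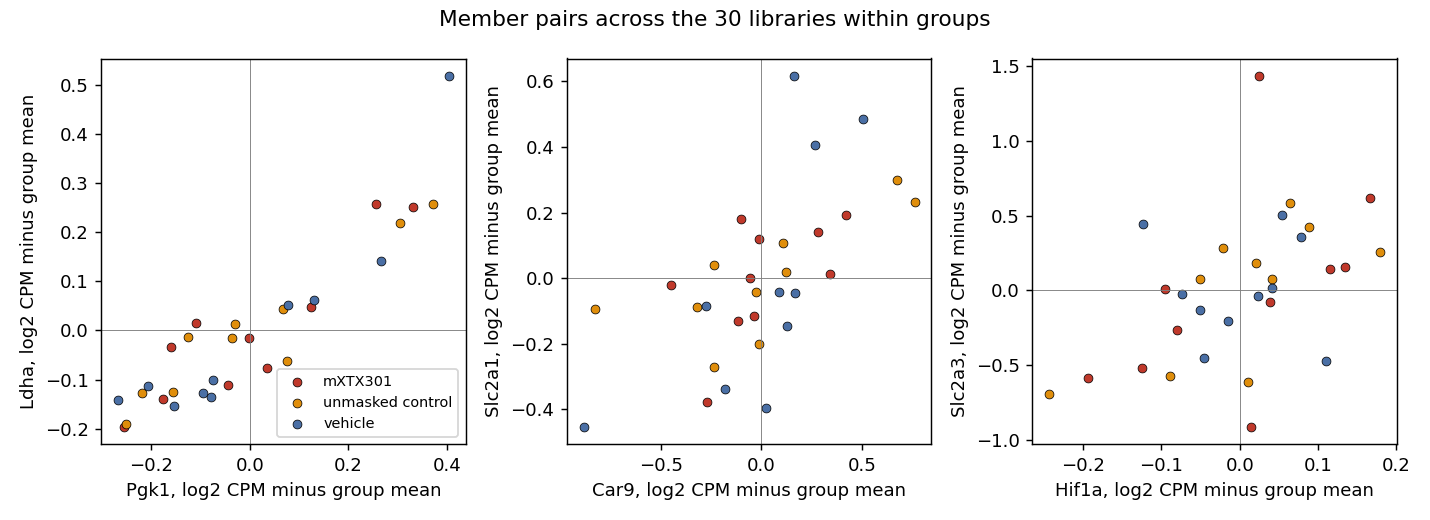
Each point is 1 of 30 libraries, with log2 CPM minus the mean of its group on both axes, coloured by treatment. Pgk1 and Ldha lie along a line (r = 0.91), while Car9 and Slc2a1 (r = 0.63) and Hif1a and Slc2a3 (r = 0.47) follow more loosely.

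Other genes of the pathways were read from lists chosen with earlier results known. Of 18 tested isoforms and transporters of glycolysis (22 listed), 2 were called higher and 5 lower for mXTX301 at day 4 (16.2% and 16% of all genes tested) and 4 and 6 at day 7 (25.7% and 22.7% of all genes). The unmasked control counts were 1 and 0 at day 4 (11.6% and 10.8% of all genes) and 3 and 3 at day 7 (23.2% and 21.8%). Hk3, the hexokinase of myeloid cells, averaged 77.6 ± 24.3 CPM in mXTX301, 62.5 ± 18.3 CPM in unmasked control and 13.1 ± 4.09 CPM in vehicle tumours at day 4 (SD, n = 5 each). At day 7 it averaged 140 ± 30.5 CPM in mXTX301, 129 ± 48.2 CPM in unmasked control and 11.4 ± 1.38 CPM in vehicle tumours (SD, n = 5 each). Its log2 fold changes were 2.56 and 3.62 for mXTX301 and 2.25 and 3.50 for the unmasked control, with every drug library above every vehicle library, beside the rise in macrophage markers given above. Tigar, a bisphosphatase that lowers fructose 2,6-bisphosphate, and Slc16a1, a monocarboxylate transporter, were lower at day 7 for mXTX301 (-0.31 and -0.41) and the unmasked control (-0.24 and -0.32).

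Of 16 other components of the hypoxia-inducible factor pathway, 3 were called higher and 4 lower for mXTX301 at day 4 (16.2% and 16% of all genes) and 1 and 4 at day 7 (25.7% and 22.7%). The unmasked control gave 2 and 2 at day 4 (11.6% and 10.8% of all genes) and 2 and 4 at day 7 (23.2% and 21.8%). Epas1, which encodes the second oxygen-regulated subunit and is abundant in endothelium, was called higher at day 7 for mXTX301 (1.40 ± 0.32, adjusted p = 0.000841) and the unmasked control (1.03 ± 0.32, adjusted p = 0.0104). The summed level of 8 endothelial markers ranged from 111 to 336 CPM in mXTX301, 112 to 221 CPM in unmasked control and 138 to 186 CPM in vehicle tumours at day 7. Vhl, the ubiquitin ligase subunit that recognises hydroxylated Hif1a protein, was called lower at day 7 for mXTX301 (-0.41) and the unmasked control (-0.36). Eloc, an elongin subunit of the same ligase, was called lower in all 4 comparisons, between -0.25 and -0.35.

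Of 37 other hypoxia-induced genes, 4 were called higher and 7 lower for mXTX301 at day 4 (16.2% and 16% of all genes) and 8 and 7 at day 7 (25.7% and 22.7%). The unmasked control had 3 and 6 at day 4 (11.6% and 10.8% of all genes) and 4 and 6 at day 7 (23.2% and 21.8%). Vegfa, the angiogenic growth factor, averaged 226 ± 27.5 CPM in mXTX301, 232 ± 18.0 CPM in unmasked control and 153 ± 28.5 CPM in vehicle tumours at day 7 (SD, n = 5 each), log2 fold changes of 0.57 ± 0.12 (SE, adjusted p = 0.000301) and 0.60 ± 0.12 (adjusted p = 0.000188), and was not called at day 4. Nampt, the enzyme that starts the salvage of NAD, and Ppp1r3b, a glycogen-targeting phosphatase subunit, were called higher in all 4 comparisons, at 0.35 to 0.55 and 0.77 to 1.45. Rcor2, a corepressor, and Jmjd6, a hydroxylase, were called lower in all 4, at -0.40 to -0.56 and -0.29 to -0.38.

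The counts of the neighbouring routes stand beside 16.2% of all genes called higher and 16% lower for mXTX301 at day 4, 25.7% and 22.7% at day 7, 11.6% and 10.8% for the unmasked control at day 4, and 23.2% and 21.8% at day 7. The 13 genes of glycogen metabolism had 3 called higher and 1 lower for mXTX301 at day 4, 3 and 2 at day 7, and for the unmasked control 3 and 0 at day 4 and 4 and 2 at day 7. Pygl, the glycogen phosphorylase of liver and leukocytes, averaged 24.8 ± 7.96 CPM in mXTX301, 25.9 ± 9.55 CPM in unmasked control and 4.62 ± 1.61 CPM in vehicle tumours at day 7 (SD, n = 5 each), log2 fold changes of 2.42 and 2.48. Of 13 genes for pyruvate entry into mitochondria, 1 was called higher and 3 lower for mXTX301 at day 4 and 2 and 5 at day 7, and 1 and 0, and 1 and 4, for the unmasked control at the same days. Pdhx and Dld, subunits of pyruvate dehydrogenase, were called lower at day 7 for mXTX301 (-0.48 and -0.22) and the unmasked control (-0.44 and -0.23), as was Pdk3, a kinase that inhibits it (-0.50 and -0.41). Of 8 genes of the pentose phosphate pathway, 1 and 2 were called higher and 2 and 1 lower for mXTX301 at days 4 and 7, and for the unmasked control 1 and 2 were called higher and 1 and 2 lower. H6pd, the glucose 6-phosphate dehydrogenase of the endoplasmic reticulum, was called higher at day 7 for mXTX301 (0.50) and the unmasked control (0.54), and Rpia, ribose 5-phosphate isomerase, was called lower in all 4 comparisons, at -0.23 to -0.35.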

How the data were processed

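The authors deposited whole-number counts per gene for 30 libraries of polyadenylated RNA, and a second deposited table of log2 values. The build was mm10, and edgeR 3.34.0 under R 4.1.0, STAR 2.7.10a, FastQC 0.11.9, HTSeq 0.11.1 and cutadapt are named per the submitters' processing notes; roles, settings and strandedness are not given in the sources used here. The deposited log2 values served only as a check: for all 14877 genes they lay within 5e-05 of log2 CPM computed here (TMM, prior count 2).

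The counts were analysed with R 4.3.3 and edgeR 4.0.16. Of 24557 entries, 5 with a repeated symbol were dropped. After filterByExpr, 15482 genes were fitted with 1 mean per group over all 30 libraries, TMM factors and robust quasi-likelihood dispersions (common coefficient of variation 27.3%). Contrasts were tested with the quasi-likelihood F test and adjusted by the Benjamini-Hochberg method over those genes. The SE is the absolute log2 fold change divided by the square root of F, and 95% intervals use it. DESeq2 1.42.0 was an alternative. On simulated counts for mXTX301 against vehicle at day 7, with 15482 genes, the fit recovered 6, 22, 30 and 41 of 50 genes changed by folds of 1.2, 1.5, 2 and 4, with 8 false calls. Only those genes were changed, while 48.4% of all genes were called in the real comparison. The recovered numbers therefore do not measure the power of the real comparison. Each mouse gave 1 library. No 2 libraries were alike within counting noise.

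The 34 genes, the lists and the tests were chosen with earlier results of these data known. Genes given by library were those called without overlap of groups, up to 6 in each direction by size of change; Hif1a, Slc2a1, Ldha and Car9 were read in every comparison. Pfkfb3, and values of the named genes in comparisons outside that rule, were added after they were seen. From each pathway list, up to 4 called genes with the smallest p were eligible, and a selection of these is given. Alternatives were other scaling factors, DESeq2, no low-count filter, a replicate block, fitting the compared groups alone, leaving out the skin-rich libraries and leaving out each library. Skin-rich libraries were those above the largest gap in the summed skin markers. The pair correlations without vehicle day 4 replicate 5 and the isoform ratios were added after seeing the data.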

Additional observations from a re-analysis of the deposited data

Results flagged for a closer look

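In groups of 5 libraries, a value of 1 of the 34 genes far from the other 4 of its group was looked for in 204 groups. The search found 20, where about 10.2 would be expected by chance if the groups were independent. They were not, since most of the genes varied together and single libraries held 11 and 5 of the flags. The number above 10.2 is therefore not read as separate outlying genes. In log2 CPM, 11 of them were in vehicle day 4 replicate 5: Hk2 was low at 7.64, and Pfkp at 7.74, Aldoc at 2.83, Tpi1 at 10.8, Gapdh at 12.5, Pgk1 at 10.9, Pkm at 12.3, Ldha at 11.6, Slc16a3 at 9.78, Bnip3 at 8.52 and Mxi1 at 5.90 were high. A further 5 were in unmasked control day 4 replicate 3, with Slc2a3 low at 1.74 and Pfkl at 8.67, Gapdh at 12.1, Pdk1 at 7.09 and Bnip3 at 8.23 high. The other 4 were Hk1 in vehicle day 7 replicate 2 (7.14, low), Pfkl in mXTX301 day 7 replicate 2 (8.75, high), Ankrd37 in unmasked control day 4 replicate 2 (3.91, low) and Ndrg1 in unmasked control day 7 replicate 1 (9.31, high).

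Among all genes of the pathway lists given above, the drug effect differed between day 7 and day 4 in 7 genes by the edgeR interaction test. Of all genes tested, 4.99% were called in that test for mXTX301 and 5.15% for the unmasked control. The 7 are listed by gene and are not read as a result about the lists. For mXTX301 the log2 change of the effect was 2.09 for Edn1 (adjusted p = 0.0479) and -0.53 for Pdp2 (adjusted p = 0.0275). For the unmasked control it was 1.25 for Hk3 (adjusted p = 0.0498), 0.73 for Vegfa (adjusted p = 0.0215), 0.99 for Angptl4 (adjusted p = 0.0286), -0.72 for Zfp395 (adjusted p = 0.0408) and 1.28 for Pygl (adjusted p = 0.0479).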

How the results depend on the processing

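Of 39 called results over the 34 genes and 4 drug comparisons, 20 kept their call in all 17 alternatives, 19 lost it in at least 1 and none reversed. For mXTX301, 2 genes were called lower at day 4 with only the groups compared in the fit and 2 without the skin-rich libraries, and 4 were called lower at day 7 with library totals only and 4 with DESeq2, which also called 1 higher for the day change of the mXTX301 effect. For the unmasked control, 1 was called lower at day 4 with only the groups compared and 1 at day 7 without the skin-rich libraries. Without the skin-rich libraries r was 0.50 for Hk2 and Slc2a1 and 0.53 for Hif1a and Slc2a3, and 0.46 for the second pair without vehicle day 4 replicate 5; the cause was not tested. Leaving out 1 library gave, for mXTX301, 2 to 7 genes called higher and 2 to 6 lower at day 4, and 8 to 12 and 2 to 4 at day 7. For the unmasked control it gave 2 to 8 higher (8 without vehicle day 4 replicate 5) and 2 to 3 lower at day 4, and 5 to 9 and 2 to 4 at day 7. The day changes gave 0 to 1 higher for either molecule and 0 to 1 lower for the unmasked control. The shares of all genes called in these alternatives, and with the replicate block below, are not set beside the counts. A shift of the counts is therefore not read as particular to the 34 genes.

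Replicate numbers did not pair libraries: over 2000 genes the deviations of equally numbered libraries correlated at 0.05 on average, and at -0.69 in the lowest case, and only 9 of 30 libraries correlated best with one of the same number. With the number as a replicate block, 4 genes were called higher and 3 lower for mXTX301 at day 4, 10 and 2 at day 7, and 4 and 3, and 7 and 3, for the unmasked control. The widest spread within groups was that of Adm, Aldoc and Slc2a3, with median coefficients of variation of 38.7, 30.1 and 29.3%.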
